A study of Mus musculus with 6 samples.

Results

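Cadherins are calcium-dependent adhesion proteins that join neighbouring cells at adherens junctions. The 7 members described here are Cdh1, Cdh2, Cdh3, Cdh4, Cdh6, Cdh11 and Cdh13, taken by name from the 25978 genes of the deposited expression table, in which all 7 were present. Cdh1 (E-cadherin), Cdh2 (N-cadherin), Cdh3 (P-cadherin) and Cdh4 (R-cadherin) are type I classical cadherins, and Cdh6 (K-cadherin) and Cdh11 (OB-cadherin) are type II classical cadherins. Cdh13 (T-cadherin) is held in the membrane by a lipid anchor and has no cytoplasmic tail, so by its structure it is not a classical cadherin, although it was listed with them. The tails of the others bind beta-catenin or plakoglobin and p120-catenin, and alpha-catenin links that complex to actin. Loss of E-cadherin with gain of N-cadherin, often called cadherin switching, is a known feature of epithelial-mesenchymal transition, including that of pancreatic carcinoma.

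The RNA came from cells sorted out of primary pancreatic tumours of KPCY mice of C57BL/6 background, between 5 and 7 weeks old. All libraries share, among the alleles of these mice, the Pdx1-Cre driver, the Trp53fl/fl alleles and the Rosa26LSL-YFP reporter, so that cells of the pancreatic lineage carry yellow fluorescent protein (YFP) and lack Trp53. Pdx1-Cre acts in the developing pancreas, and YFP therefore marks normal pancreatic descendants as well as tumour cells. YFP-positive cells were divided by surface EpCAM, an epithelial adhesion protein, into EpCAM+ and EpCAM- cells, with 3 libraries of each, which the series text calls biological replicates. No label ties a library to an animal, and a p-value here reflects library-to-library spread, which may be partly technical. The comparison asks how the expression of these genes differed between pancreatic lineage cells with and without EpCAM on their surface.

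Values are normalised levels on a log2 scale as deposited, and differences are EpCAM- minus EpCAM+. The sequencing depth of the libraries is unknown, so no detection limit or counting interval is given. Genes with a mean back-transformed level of at least 10 were tested with limma, and a call means a two-sided Benjamini-Hochberg adjusted p under 0.05 over all 15783 tested genes. Epcam checked the sort, with 14.95 ± 0.096 (SD, n = 3) in EpCAM+ and 8.42, 8.22 and 7.22 in EpCAM- replicates 1, 2 and 3, a difference of -7.00 ± 0.296 (SE). Of the 10 epithelial markers listed, 10 fell in EpCAM- libraries, beside 23.1% of all tested genes. Epcam, whose protein was used for the sort, is among the 10. Their summed back-transformed level lay between 297000 and 308000 in EpCAM+ and between 22300 and 39300 in EpCAM- libraries, so RNA of these markers was reduced and not absent after the sort. The EpCAM- sums came mainly from the keratins Krt8 and Krt18, with mean log2 levels of 13.81 and 13.73. Krt19 had 11.56 there, and Krt7, the highest of the rest, had 8.45. In bulk RNA, fewer cells of a type and less RNA per cell cannot be told apart.

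The E-, P- and K-cadherin genes fell in EpCAM- cells, and the N- and OB-cadherin genes rose. Of the 7 members, 6 passed the filter on low values, and of these 3 fell, 2 rose and 1, Cdh13, was not called. Among all tested genes 43.4% were called, 23.1% as lower and 20.3% as higher. The median difference of the 6 tested members was -0.82, beside 0.004 over all tested genes. The groups were fully separated for Cdh1, Cdh2, Cdh3, Cdh4, Cdh6 and Cdh11, as they were for 56.3% of tested genes and 42.1% of all 25978 genes, and overlapped for Cdh13. A member called in EpCAM- cells was thus not unusual for being called, and the sizes of the differences are given next. Called falls of at least 2 log2 units, reached by Cdh1 and Cdh3, were seen for 7.7% of tested genes, and called rises of that size, reached by Cdh2 and Cdh11, for 3.67%.

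**Figure D1:**
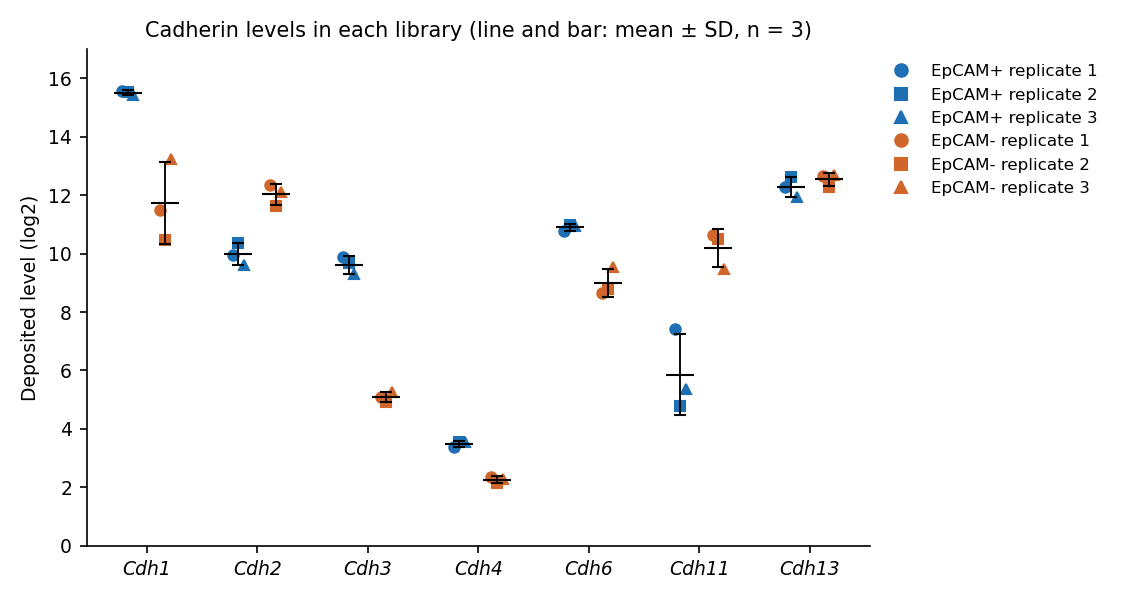
Deposited log2 level (vertical axis) of the 7 cadherin genes (horizontal axis) in each library. Each point is 1 library, colours mark the group, shapes the replicate number, and the black line and bar give the mean and SD of 3 libraries. Cdh1, Cdh3, Cdh4 and Cdh6 sit lower and Cdh2 and Cdh11 higher in EpCAM- libraries, and the groups overlap for Cdh13.

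Cdh1 (ENSMUSG00000000303, GRCm38 chromosome 8, 106603351 to 106670246, plus strand) encodes E-cadherin, the main cadherin of epithelial adherens junctions. EpCAM+ replicates 1, 2 and 3 had log2 levels of 15.58, 15.52 and 15.42. EpCAM- replicates 1, 2 and 3 had 11.51, 10.47 and 13.25. The EpCAM+ libraries were thus close together, the EpCAM- libraries were spread over more than 2 log2 units, and replicate 3 was the highest of them. The difference was -3.77 ± 0.623 (SE), a 13.6-fold fall (limma adjusted p = 0.00286). Without EpCAM- replicate 3 the fall was 22.9-fold, and without EpCAM- replicate 2 it was 8.75-fold. The spread of Cdh1 among EpCAM- libraries did not follow Epcam, which was lowest in replicate 3, the library with most Cdh1. Krt8, a keratin of simple epithelia, stood at 14.18, 13.20 and 14.05 in EpCAM- replicates 1, 2 and 3, with the lowest value in replicate 2, as for Cdh1.

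Cdh3 (ENSMUSG00000061048, chromosome 8, 106510891 to 106557297, plus strand) encodes P-cadherin, found in basal and progenitor layers of many epithelia. Its log2 level was 9.88, 9.68 and 9.29 in EpCAM+ and 5.09, 4.90 and 5.27 in EpCAM- replicates 1, 2 and 3. Both groups were tight, and every EpCAM- library lay more than 4 log2 units below every EpCAM+ library. The fall of 4.53 ± 0.207 on the log2 scale (SE, limma adjusted p = 9.74e-06), 23.2-fold, had the smallest standard error among the tested members apart from Cdh13. The sources used here do not name the transform behind the deposited values, so how far a level near 5 is compressed is unknown.

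Cdh6 (ENSMUSG00000039385, chromosome 15, 13028701 to 13173675, minus strand) encodes K-cadherin, a type II cadherin known from kidney and neural development. It stood at 10.77, 10.99 and 10.96 in EpCAM+ and at 8.65, 8.80 and 9.53 in EpCAM- replicates 1, 2 and 3. All EpCAM- libraries were lower, and replicate 3 was again the highest of them. The fall was 1.91 ± 0.230 on the log2 scale (SE, limma adjusted p = 0.000649), or 3.76-fold. Cdh6 was the only member with an entry in the RefSeq promoter table (build GRCm38.p6). The stretch shown is chr15:13173676-13173925 on the minus strand, the 250 bases before its start, because repressors that bind E-boxes are among the genes compared. Capitals mark the 1 match to the E-box CANNTG, with its first base at position -15.
Cdh6 promoter: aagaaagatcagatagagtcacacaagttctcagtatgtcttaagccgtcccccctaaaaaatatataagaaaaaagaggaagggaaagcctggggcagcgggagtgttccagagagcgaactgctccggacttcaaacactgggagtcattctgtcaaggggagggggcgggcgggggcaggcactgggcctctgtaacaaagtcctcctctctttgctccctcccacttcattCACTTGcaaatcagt
Both strands were searched. CANNTG occurred in 66.2% of 32851 promoter windows of this length, CACTTG (or CAAGTG on the other strand) in 11.6%, and CACCTG (or CAGGTG) in 17.2%. CACTTG and CACCTG are both special cases of CANNTG. The Cdh6 window held CACTTG and no CACCTG. A match of these letters is a description and shows no binding.

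Cdh4 (ENSMUSG00000000305, chromosome 2, 179442431 to 179899373, plus strand) encodes R-cadherin, best known from retina and brain. Its log2 level was low in all libraries, at 3.38, 3.55 and 3.54 in EpCAM+ and 2.37, 2.15 and 2.27 in EpCAM- replicates 1, 2 and 3. The EpCAM- libraries were all lower, by 1.23 on the log2 scale, but the mean back-transformed level of 8.02 was under the filter and Cdh4 was not tested. With no filter, Cdh4 was lower at a limma adjusted p of 0.00147, where 26.7% of 25978 genes were called. The within-group SDs of Cdh4 were 0.0976 and 0.111, beside a median of 0.273 over genes with a mean between 2 and 4.

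Cdh2 (ENSMUSG00000024304, chromosome 18, 16588877 to 16809246, minus strand) encodes N-cadherin, the cadherin of neural and mesenchymal cells. Its log2 level was 9.95, 10.37 and 9.63 in EpCAM+ and 12.36, 11.65 and 12.12 in EpCAM- replicates 1, 2 and 3. The highest EpCAM+ library lay more than 1 log2 unit below the lowest EpCAM- library. Cdh2 RNA was present in all EpCAM+ libraries too, and which of their cells held it was not tested. The rise was 2.06 ± 0.240 (SE, limma adjusted p = 0.000556), or 4.17-fold, and between 3.69-fold and 4.78-fold with any 1 library left out.

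Cdh11 (ENSMUSG00000031673, chromosome 8, 102632095 to 102785642, minus strand) encodes OB-cadherin, a cadherin of osteoblasts and fibroblasts. It stood at 7.44, 4.77 and 5.37 in EpCAM+ and at 10.64, 10.51 and 9.46 in EpCAM- replicates 1, 2 and 3. EpCAM+ replicate 1 was the highest of its group and EpCAM- replicate 3 the lowest of its own, and the groups still did not overlap. The rise was 4.35 ± 0.684 (SE, limma adjusted p = 0.00228), or 20.3-fold. Left-out libraries moved the rise between 14.0-fold, without EpCAM+ replicate 2, and 35.1-fold, without EpCAM+ replicate 1, and without EpCAM+ replicate 1 and EpCAM- replicate 3 together it was 45.4-fold.

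Fibroblast markers moved with Cdh11. Of 12 fibroblast markers listed, 11 were tested and 8 rose, beside 20.3% of all tested genes. Of these markers 0 fell (limma, with 0 lower also at an unadjusted p under 0.05). Their summed back-transformed level was 14200, 1390 and 1680 in EpCAM+ and 126000, 170000 and 38000 in EpCAM- replicates 1, 2 and 3. The libraries highest in EpCAM+ and lowest in EpCAM- for Cdh11 were so for this sum too, but not for every marker in it. Pdpn was highest of EpCAM+ in replicate 3 and lowest of EpCAM- in replicate 1. Fap and Clec3b were also highest of EpCAM+ in replicate 3, and the remaining markers followed Cdh11 in both groups. The part of these markers in the result was not tested. Pdgfra, a defining receptor of fibroblasts, was at 6.82, 4.65 and 5.49 in EpCAM+ and 9.18, 9.60 and 8.61 in EpCAM- replicates 1, 2 and 3. Clec3b was the 1 fibroblast marker under the filter. Without EpCAM+ replicate 1 and EpCAM- replicate 3 the rise of Cdh11 was larger, as given above.

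**Figure D2:**
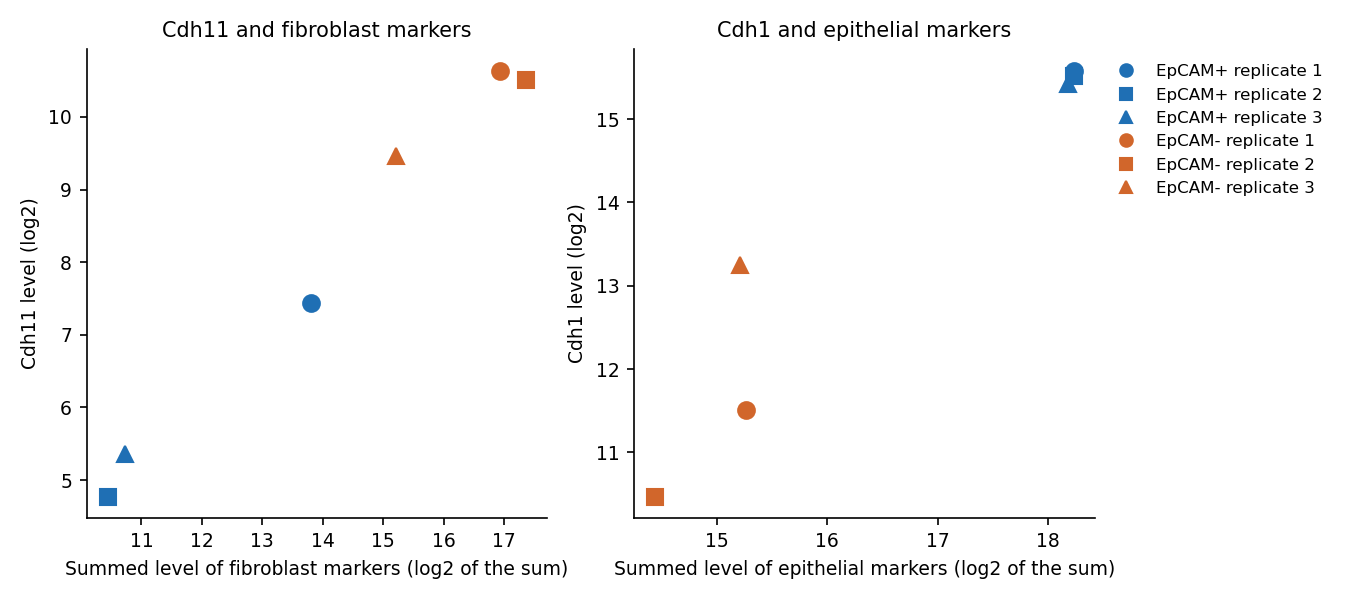
Left, Cdh11 level (log2) against the log2 of the summed back-transformed level of the 12 fibroblast markers. Right, Cdh1 level (log2) against that of the 10 epithelial markers, which in EpCAM- libraries comes mainly from Krt8 and Krt18. Each point is 1 library. Cdh11 and the fibroblast sum are highest of EpCAM+ in replicate 1 and lowest of EpCAM- in replicate 3, and EpCAM- replicate 3 has the highest Cdh1 of its group at an epithelial sum (log2 of 15.21) near that of replicate 1 (15.26).

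Cdh13 (ENSMUSG00000031841, chromosome 8, 118283733 to 119324921, plus strand) encodes T-cadherin, a receptor for adiponectin and lipoproteins that is abundant in vascular cells and heart. Its log2 level was 12.28, 12.62 and 11.94 in EpCAM+ and 12.66, 12.29 and 12.70 in EpCAM- replicates 1, 2 and 3. The groups overlapped, and the difference of 0.27 ± 0.199 (SE) was not called (limma adjusted p = 0.314). Its 95% confidence interval ran from -0.20 to 0.74, so a rise of up to 0.74 log2 units lies within it. The endothelial markers, listed because vascular cells express Cdh13, were low, with 5 of 10 under the filter (Tie1, Tek, Cldn5, Emcn and Erg). Of the 5 tested, 1 was called higher, beside 20.3% of all tested genes. The summed back-transformed level of the 10 was between 138 and 177 in EpCAM+ and between 230 and 231 in EpCAM- libraries. Cdh13 had a mean back-transformed level of 5560 over the 6 libraries. These levels were not divided by gene length, and the part of vascular cells in the Cdh13 level was not tested. The vascular cadherin gene Cdh5 was at 4.25, 4.25 and 3.33 in EpCAM+ and 6.04, 4.66 and 4.75 in EpCAM- replicates 1, 2 and 3 and was not called (limma adjusted p = 0.0658, between 0.0294 and 0.198 over its alternatives).

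**Figure D3:**
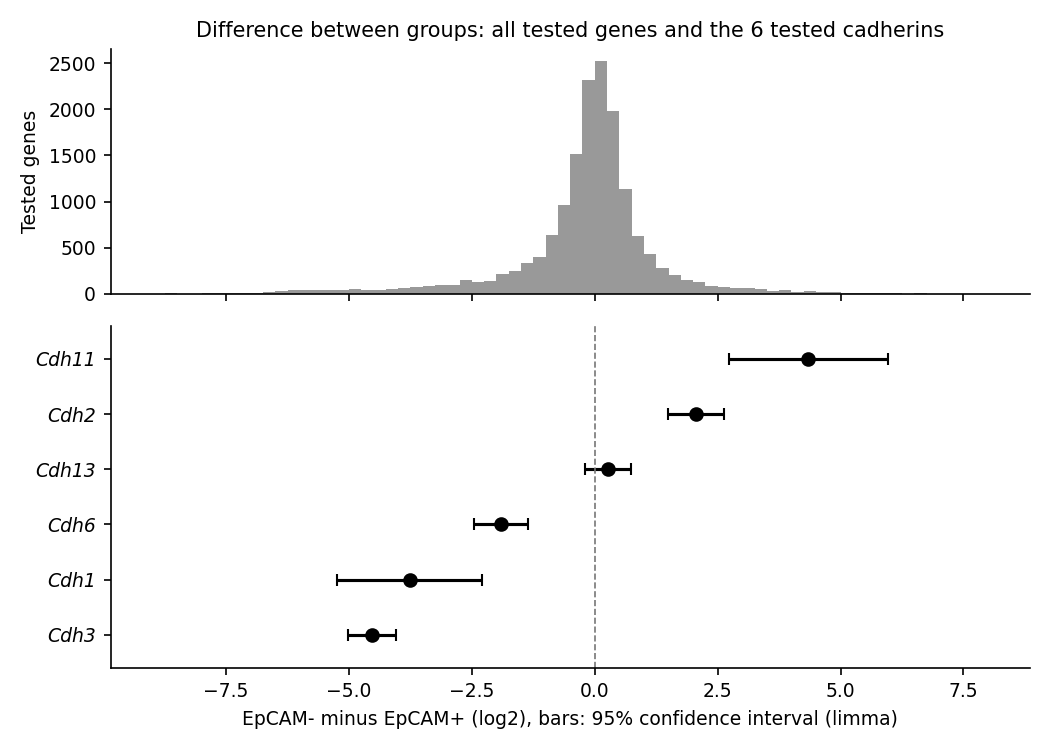
Top, the number of tested genes (vertical axis) by their difference, EpCAM- minus EpCAM+ on the log2 scale (horizontal axis). Bottom, the 6 tested cadherins with their difference and 95% confidence interval from limma. The interval of Cdh13 includes 0, and those of Cdh3, Cdh1 and Cdh6 lie below and those of Cdh2 and Cdh11 above it.

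The balance of Cdh2 to Cdh1 within a library does not depend on scaling between libraries. The log2 level of Cdh2 minus that of Cdh1 was -5.64, -5.15 and -5.80 in EpCAM+ and 0.85, 1.18 and -1.13 in EpCAM- replicates 1, 2 and 3. It shifted by 5.83 toward Cdh2, and EpCAM- replicate 3 moved least. For Cdh11 minus Cdh1 the values were -8.15, -10.74 and -10.06 in EpCAM+ and -0.87, 0.04 and -3.79 in EpCAM- replicates 1, 2 and 3, a shift of 8.11. In both balances the groups did not overlap, and the two-sided exact permutation p over 3 against 3 libraries was 0.1, raw and after adjustment over the 2 balances, which is the smallest this design can give. These balances compare read totals of genes of different length, so only their shifts are read, not their sign.

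Levels of different members were compared per kilobase of exon, as the back-transformed level divided by the summed length of all annotated exons of the gene. In EpCAM+ libraries Cdh1 stood at 10200 ± 563 per kilobase and Cdh13 at 452 ± 107 (SD, n = 3). Cdh6 (213 ± 17), Cdh3 (182 ± 36.2) and Cdh2 (128 ± 33.1) followed, then Cdh11 (9.05 ± 9.04) and Cdh4 (1.55 ± 0.102). The ranges of Cdh6 and Cdh3, and of Cdh3 and Cdh2, overlapped, and the other neighbours in that order did not. With the longest annotated transcript as length, Cdh2 (213 ± 55.2) stood above Cdh3 (182 ± 36.2), so their order depends on the length used. EpCAM+ cells thus had mainly E-cadherin RNA among the 7.

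In EpCAM- libraries the order was less clear. Cdh1 had the highest mean, at 1020 ± 968 per kilobase, with Cdh13 at 538 ± 79.6 and Cdh2 at 533 ± 127 (SD, n = 3). Among these 3 genes, the ranges of neighbours overlapped. Cdh11 (141 ± 53.8) lay below Cdh2 in every EpCAM- library, and its range overlapped that of Cdh6 (58.7 ± 20.5). Cdh3 (7.78 ± 0.977) and Cdh4 (0.662 ± 0.0505) were lowest and apart from their neighbours. The summed level of the 7 was 11200 ± 676 per kilobase in EpCAM+ and 2300 ± 1050 in EpCAM- libraries, and in EpCAM- replicate 3 it was 3440.

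As a share of that sum, Cdh1 made up 91.2% ± 1.12 of EpCAM+ (SD, n = 3) and 38.3% ± 20.8 of EpCAM- libraries. It took 30.4%, 22.5% and 61.8% in EpCAM- replicates 1, 2 and 3. Cdh2 took 1.14% ± 0.261 in EpCAM+ and 25.3% ± 8.14 in EpCAM- libraries. Cdh11 took 0.0790% ± 0.0756 and 7.59% ± 4.88, and Cdh13, whose level was not called as different, took 4.02% ± 0.817 and 25.7% ± 7.79. The make-up of EpCAM- cells was therefore mixed, and Cdh1 had the largest share in EpCAM- replicate 3, with either gene length. With the longest annotated transcript as length, Cdh13 had the largest mean share of EpCAM- libraries, at 38.9% ± 7.82, with Cdh1 at 26.0% ± 17.4 and Cdh2 at 25.9% ± 6.10, so the order of these 3 depends on the length used.

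**Figure D4:**
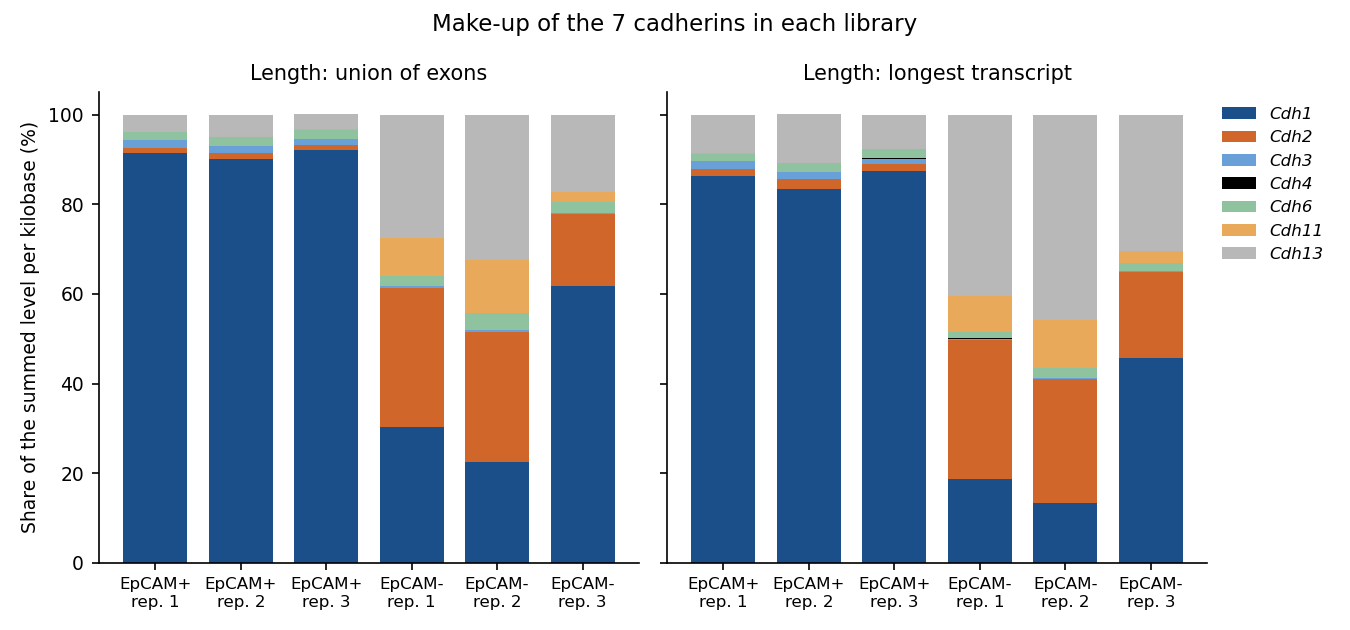
Share of each of the 7 cadherins in their summed level per kilobase (vertical axis, percent) in each library (horizontal axis), with the union of exons (left) or the longest annotated transcript (right) as gene length. Cdh1 fills 90.0% or more of each EpCAM+ bar on the left, and EpCAM- bars are divided mainly between Cdh1, Cdh2, Cdh13 and Cdh11.

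Of the 7 members, 4 lie on chromosome 8, and Cdh3 and Cdh1 lie close together there. They run in the same direction and are 46.1 kb apart. Gm10073, annotated as protein-coding, lies between them on the minus strand. Its difference of 0.0 ± 0.235 (SE) was not called (limma adjusted p = 0.994). Genes within 250 kb of the pair did not share 1 direction. Smpd3, which encodes a neutral sphingomyelinase, fell by 5.90 ± 0.217 on the log2 scale (SE, limma adjusted p = 5.74e-06), and Has3, a hyaluronan synthase gene, fell by 0.92 ± 0.233 (SE, limma adjusted p = 0.0169), a call lost after quantile normalisation (adjusted p = 0.0945; between 0.0161 and 0.104 over its alternatives). Utp4, a ribosome assembly gene, rose by 0.81 ± 0.118 (SE, limma adjusted p = 0.00158). Tango6, the next protein-coding gene after Cdh1, was at 8.42, 8.52 and 8.31 in EpCAM+ and 8.53, 8.23 and 8.56 in EpCAM- replicates 1, 2 and 3, and its difference of 0.02 ± 0.145 (SE) was not called (limma adjusted p = 0.909). Zfp90, the protein-coding gene before Cdh3, fell by 0.41 ± 0.128 (SE, limma adjusted p = 0.0387), a call lost under 9 of its 15 alternatives, quantile normalisation among them (adjusted p between 0.0275 and 0.235).

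The tested genes with profiles nearest to each member were found by the root mean square (RMS) difference between log2 profiles over the 6 libraries, each centred on its own mean. For Cdh1 they were Wfdc2 (0.363), the transcription factor gene Gata5 (0.372) and Clu (0.482), which encodes the secreted chaperone clusterin. The median RMS difference to all tested genes was 2.07. For Cdh3 they were the polarity kinase gene Prkcz (0.170), Foxa3 (0.183) and the Notch ligand gene Jag2 (0.200). For Cdh11 they were the fibrillar collagen gene Col5a2 (0.252), Rcn3 (0.252) and Olfml3 (0.325). Cdh2 was nearest to Ptpn22 (0.107), Nxn (0.136) and Pvt1 (0.150), Cdh6 to BC021767 (0.0972), Nipal3 (0.124) and Susd1 (0.135), and Cdh13 to Tmem158 (0.0473), Car5b (0.0756) and Dglucy (0.0782). No member was among the nearest genes of another.

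The catenins, which bind cadherin tails, fell by less than Cdh1 and Cdh3. Of 10 listed, 9 were tested, 7 fell and 0 rose (limma, with 0 higher also at an unadjusted p under 0.05), and their median difference was -0.77. Beside this list and the partner lists below, 23.1% of all tested genes were lower and 20.3% higher. Ctnnb1, which encodes beta-catenin, was at 15.88, 15.78 and 15.68 in EpCAM+ and 14.47, 14.39 and 14.70 in EpCAM- replicates 1, 2 and 3. It fell by 1.26 ± 0.165 (SE, limma adjusted p = 0.000981), and all EpCAM- libraries still had high levels. Plakoglobin, Jup, fell by 1.38 ± 0.132 (SE) and p120-catenin, Ctnnd1, fell by 0.73 ± 0.137 (SE). Of the p120 relatives, Arvcf fell by 1.18 and Pkp4 fell by 0.77 on the log2 scale, and the alpha-catenin relative Ctnnal1 fell by 1.78. Ctnna1, which encodes alpha-catenin, fell by 0.54 ± 0.147 (SE, limma adjusted p = 0.0222). That call was lost without EpCAM+ replicate 1 or 2 or EpCAM- replicate 2 or 3, with adjusted p between 0.00992 and 0.174 over all its alternatives. The neural forms Ctnna2 (0.63, adjusted p = 0.194) and Ctnnd2 (0.33, adjusted p = 0.435) were not called, and Ctnna3 was under the filter.

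Genes that tie the cadherin complex to actin and microtubules included both large and small falls. Of 14 tested, 9 fell and 2 rose, with a median difference of -0.78. Camsap3 and Plekha7 anchor microtubules at the epithelial adherens junction. Camsap3 fell by 5.37 ± 0.159 and Plekha7 fell by 4.75 ± 0.303 on the log2 scale (SE). Shroom3, a regulator of apical constriction, fell by 5.16 ± 0.173 (SE), and the actin regulator Enah fell by 1.31 ± 0.263 (SE). Vcl, which encodes vinculin, the binding partner of stretched alpha-catenin, went the other way by 0.51 ± 0.130 (SE, limma adjusted p = 0.0174). Its call was lost without EpCAM+ replicate 1 or 3 or EpCAM- replicate 3, with adjusted p between 0.0105 and 0.179 over all its alternatives.

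Nectins, immunoglobulin-like partners of cadherins at the same junctions, changed in both directions, like the cadherins themselves. Of 9 tested nectins and nectin-like genes, 5 fell and 3 rose, with a median difference of -0.44. Nectin4 fell by 5.19 ± 0.231 and Nectin2 fell by 2.14 ± 0.175 on the log2 scale (SE). Nectin1 rose by 1.30 ± 0.183 and Nectin3 by 0.84 ± 0.121 (SE). Among the nectin-like genes, Cadm3 rose by 3.02 ± 0.281 and Cadm4 fell by 2.58 ± 0.258 (SE).

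Of 16 tested genes of cadherin maturation, shedding and turnover, 3 rose, 2 fell and 11 were not called, with a median difference of -0.09, where 43.4% of all tested genes were called. Pcsk6, a proprotein convertase, fell by 2.68 ± 0.266 on the log2 scale (SE), and Furin, a convertase that removes cadherin prodomains, fell by 0.78 ± 0.140 (SE, limma adjusted p = 0.00403). The Furin call ended only without EpCAM+ replicate 1 and EpCAM- replicate 3 together (adjusted p = 0.0515; the lowest over its 15 alternatives was 0.000609). Adam15 rose 2.82-fold, with a standard error of 0.171 on the log2 scale. Adam10, which cuts E- and N-cadherin at the cell surface, had a difference of 0.60 ± 0.155 (SE, limma adjusted p = 0.0187). Leaving out EpCAM+ replicate 2 or 3 ended that call, and adjusted p lay between 0.00494 and 0.109 over all alternatives. Numbl, a relative of the endocytic adaptor Numb, had a difference of 0.66 (limma adjusted p = 0.0293). That call ended when any 1 library other than EpCAM+ replicate 2 was left out, and adjusted p lay between 0.00978 and 0.139 over all alternatives.

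The repressors of Cdh1 include zinc-finger and basic helix-loop-helix factors that bind E-boxes. Of 12 listed, 10 were tested, 6 rose and 2 fell, with a median difference of 1.51. Snai2 rose by 3.54 ± 0.283, Twist1 by 3.32 ± 0.208 and Zeb2 by 2.75 ± 0.277 (SE). Snai1 rose by 2.22 ± 0.184 and Zeb1 by 2.21 ± 0.140 (SE). EpCAM- replicate 3, the library of its group with the most Cdh1, had 8.24 for Snai2, 10.80 for Twist1, 12.02 for Zeb2, 8.95 for Snai1 and 10.75 for Zeb1. For comparison, EpCAM- replicates 1 and 2 had 7.72 and 8.35 for Snai2, 10.48 and 10.87 for Twist1, 11.79 and 12.48 for Zeb2, 8.80 and 9.14 for Snai1 and 10.91 and 11.05 for Zeb1. Replicate 3 was thus lowest of its group for Zeb1 alone among these 5, by less than 0.2 log2 units. Of the other tested repressors, it was also lowest of its group for Tcf3, Klf8 and Foxc2, and replicate 1 for Tcf4 and Snai3. The part of the repressors in the Cdh1 level was not tested. Snai3, a Snail relative, fell by 3.52 ± 0.217 (SE), and Foxc2 had -1.52 at an adjusted p of 0.0497, a call lost under 9 of its 14 alternatives (adjusted p between 0.0128 and 0.210), among them quantile normalisation and the TMM formula.

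Desmosomes join cells through their own cadherins, and these fell with Cdh1 and Cdh3. Of 10 matched desmosomal genes, 7 were tested, 7 fell and 0 rose (limma, with 0 higher also at an unadjusted p under 0.05), with a median difference of -4.27. Of the desmosomal cadherins, Dsg3 fell by 5.23 ± 0.213 and Dsg2 fell by 4.74 ± 0.309 on the log2 scale (SE). Of the plaque genes, Pkp3 fell by 4.95 ± 0.207 and Dsp fell by 4.27 ± 0.367 (SE). Dsg1b, Dsg1c and Dsc3 were under the filter. The median fall of this list was larger than that of the catenins, a comparison of medians that was not tested.

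**Figure D5:**
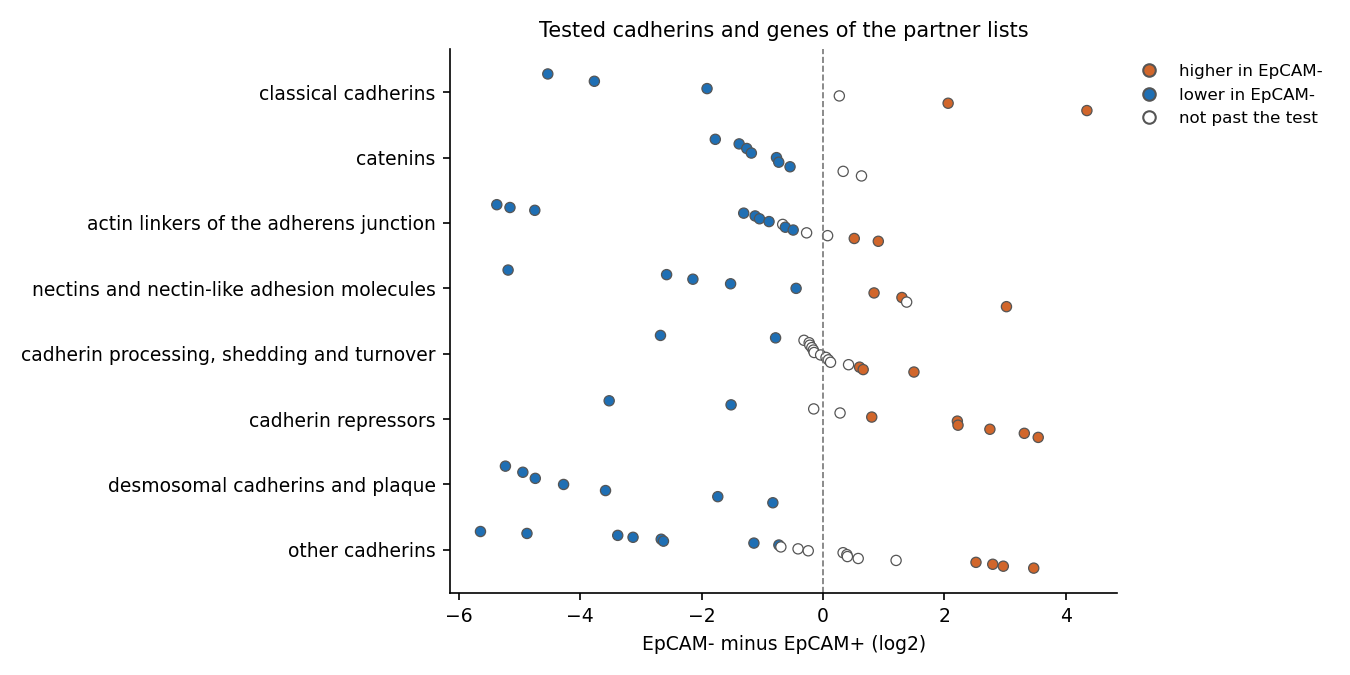
Difference, EpCAM- minus EpCAM+ on the log2 scale (horizontal axis), of each tested gene (points) in the cadherin group and 7 partner lists (rows). Orange points were called higher, blue points called lower, and white points not called. All 7 desmosomal genes are blue, the catenins lie between -1.78 and 0.63, and 6 of 10 repressors are orange.

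Markers of several other cell types differed between the groups as well. The share over all tested genes was 43.4% called, with 23.1% lower and 20.3% higher. Of 8 tested macrophage and leukocyte markers 7 were lower in EpCAM- libraries, and their summed back-transformed level was between 1140 and 5280 in EpCAM+ and between 355 and 603 in EpCAM- libraries, with Cd3e and S100a8 under the filter. Of 10 acinar markers 9 fell, with sums between 47400 and 92700 in EpCAM+ and between 475 and 671 in EpCAM- libraries, and of 10 islet markers 10 fell, from between 2290 and 12000 to between 99.6 and 164. Of 9 tested pericyte and smooth muscle markers 2 rose and 2 fell, near the share of all tested genes, and Kcnj8 was under the filter. Their sums overlapped, between 2670 and 4680 in EpCAM+ and between 2750 and 4320 in EpCAM- libraries. Of 8 mesothelial markers 5 were under the filter (Upk3b, Upk1b, Lrrn4, Wt1 and Gpm6a) and 1 of the 3 tested fell. Mesothelial sums were between 52500 and 56200 in EpCAM+ and between 4840 and 13700 in EpCAM- libraries. They include the epithelial keratin Krt19, with mean log2 levels of 15.27 in EpCAM+ and 11.56 in EpCAM- libraries. Msln had 13.79 and 12.55, was above Krt19 in every EpCAM- library, and was not called (limma adjusted p = 0.0634). Of 10 mesenchymal markers 9 rose, and the median difference of the list was 3.68. Sums were between 350000 and 455000 in EpCAM+ and between 705000 and 1270000 in EpCAM- libraries. These sums came mostly from Fn1, the 1 marker not called (limma adjusted p = 0.196), and do not give the size of the rise of the 9. The part of these cell types in the levels of the cadherins was not tested.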

How the data were processed

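RNA of sorted YFP-positive cells was measured in 6 libraries, 3 per group, prepared with a KAPA mRNA HyperPrep kit per the labels' protocols. The tools named in the submitters' processing notes are STAR 2.5.2, DESeq2 1.24.0 and RSEM, with the genome build GRCm38 and no role or order. The authors deposited normalised log2 values, from -1.52 to 20.05, with no transform named in the sources used here. Sequencing depth is unknown.

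The values were compared as deposited with limma 3.58.1 (R 4.3.3), using a mean-variance trend and no other term, after the code was tested on simulated data. Symbols, coordinates and exon lengths came from GENCODE M21 (GRCm38), which named 25831 identifiers and left 147 unnamed. Promoter bases came from RefSeq. Alternatives were pseudocounts of 1 and 5, filters of none or 50, quantile normalisation, the TMM formula, array weights, a block on the replicate number and libraries left out. The members, the 7 partner lists, the marker lists and the naming rule were chosen with earlier results of these data known. The rule named all members, Epcam, all tested catenins, up to 4 called genes of each partner list with the largest difference, the lowest and highest gene of each marker list, and the 3 genes nearest in profile to each member. Not all marker genes the rule allows are printed. Named outside it, after their values were seen, were Zeb1, Snai1, Foxc2, Tcf3, Tcf4, Klf8, Adam10, Vcl, Cdh5, Cdh10, Dchs1, Nectin1 and Nectin3. Markers so named were Krt18, Krt7, Cldn4, Cldn7, Esrp1, Ocln, Pdgfra, Pdpn, Fap and Msln. Genes given as under the filter and the neighbours of Cdh1 were also named outside the rule. One further allele of the mice and one marker list are not reported here.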

Additional observations from a re-analysis of the deposited data

How the results depend on the processing

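The calls and directions of the 6 tested members held under all 15 alternatives, with 2 higher and 3 lower in each. Quantile normalisation moved the median difference of all tested genes from 0.004 to 0.131. Without EpCAM+ replicate 1 and EpCAM- replicate 3 together, 1909 genes were higher, 0 actin linkers were higher, and 1 processing gene was higher and 1 lower. With 1 library left out, all tested genes counted between 2139 and 3323 higher, actin linkers between 1 and 2 higher, processing genes between 1 and 2 higher, and repressors between 1 and 3 lower. The lower repressors numbered 1 with no filter, quantile normalisation, the TMM formula or both libraries left out, and 0 at a filter of 50, where 7 were tested. Lower genes among other cadherins numbered 4 at that filter. The balance shifts ran between 5.39 and 6.54 for Cdh2 and between 7.32 and 9.24 for Cdh11. With the longest transcript as length, shares in EpCAM+ were 85.8% for Cdh1, 1.72% for Cdh2 and 8.99% for Cdh13, and in EpCAM- 0.230% for Cdh3, 1.86% for Cdh6 and 38.9% for Cdh13. With levels of 10 or less set to 0, the Cdh4 share in EpCAM- was 0%. Tango6 ran between -0.0368 and 0.127 with 1 library left out, being below 0 without EpCAM- replicate 1 (-0.0186), EpCAM+ replicate 3 (-0.0268) or EpCAM- replicate 3 (-0.0368), and was -0.0368 without EpCAM+ replicate 1 and EpCAM- replicate 3 together. The cause of these shifts was not tested.

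No label says that a replicate number marks a shared tumour, so the numbers were not taken as pairs. Libraries with the same number deviated together at correlations of 0.410, 0.0438 and 0.165 for numbers 1, 2 and 3, and not every library correlated best with its own number. With 3 libraries per group, these correlations cannot show whether the numbers mark pairs. With the replicate block, 3365 genes were higher and 3725 lower, the members' calls were the same, and Cdh5 passed (adjusted p = 0.0294), as it did after quantile normalisation (adjusted p = 0.0370).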

Other observations

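Cadherin relatives outside the classical group also changed in both directions. Of 33 listed, 29 were matched and 20 tested, of which 8 were lower and 4 higher in EpCAM- libraries, with a median difference of -0.33. Over all tested genes 23.1% were lower and 20.3% higher. Cdh17, the cadherin of intestinal epithelium, stood at 11.63, 12.46 and 11.77 in EpCAM+ and 6.19, 6.20 and 6.55 in EpCAM- replicates 1, 2 and 3. It fell by 5.64 ± 0.235 on the log2 scale (SE, limma adjusted p = 7.38e-06), more than any of the 7 members. Celsr1 and Celsr2, seven-pass cadherins of planar cell polarity, both fell. Celsr1 fell by 4.88 ± 0.172 and Celsr2 fell by 3.38 ± 0.284 on the log2 scale (SE).

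The giant cadherin Fat4 and its ligand Dchs1 both rose. Fat4 stood at 5.86, 6.38 and 6.56 in EpCAM+ and 8.61, 10.06 and 10.54 in EpCAM- replicates 1, 2 and 3, and rose by 3.47 ± 0.484 (SE, limma adjusted p = 0.00130). Dchs1 rose by 2.97 ± 0.588 (SE, limma adjusted p = 0.00626), with its highest level, 8.95, in EpCAM- replicate 2. Cdh10, a type II cadherin of brain, rose by 2.52 ± 0.386 (SE, limma adjusted p = 0.00201).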
